A study of Mus musculus with 6 samples.

Results

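Olfactory receptor genes were followed on whole-transcript arrays of mouse brain as a family whose RNA is largely confined to the nose. Every gene whose single symbol in the platform's annotation is Olfr followed by a digit was taken, which gave 154 genes of 5032 with a symbol of their own, measured by 184 of 58919 probe sets. The choice used symbols only and no measured value. Among the 65535 deposited rows, members were found on chromosomes 1, 10, 11 and 13 only. Most of the 4878 other genes lay there too, with 1126, 889, 1491 and 637 on these chromosomes. The rows may hence not cover the whole array, and comparisons with other genes hold for the genes in these rows. Counts and rankings here hold for these 154 genes and need not hold for the whole mouse family. Brain RNA was measured on 3 arrays of the knockout, genotype APPPS1-FVBxABCC1, and 3 of the control, genotype APPPS1-FVB. Both groups thus carry APPPS1, a pair of *Thy1*-driven transgenes for mutant human APP and presenilin 1 that cause amyloid plaques, on the inbred FVB background, and the knockout alone adds the loss of *Abcc1*, an exporter of glutathione conjugates. The labels give no age, sex or brain region and do not state that each array is a different animal. The p-values hence cover the spread among these samples, which may be technical. *Abcc1* itself had 0 probe sets among those analysed here, so the genotype labels were not checked.

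Olfactory receptors are G protein-coupled receptors with a coding region in a single exon, and they form the largest gene family of the mouse. Each mature olfactory sensory neuron of the nasal epithelium transcribes 1 allele of 1 receptor gene and keeps the rest in repressive chromatin. The receptor signals through a stimulatory G protein and adenylyl cyclase 3 and also guides the axon to its glomerulus in the olfactory bulb. The bulb receives these axons, while the cell bodies that make the receptor RNA lie outside the brain. Scattered receptor transcripts are known from testis and other tissues.

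Promoters of the family are short and rich in A and T, and are known for homeodomain sites, bound by Lhx2, and for O/E sites, bound by Ebf factors. The 250 bases before the annotated start were available for 131 of the 154 genes in 132 windows from RefSeq (GRCm38.p6). In 92 windows an ATG followed at once, so these gene models begin at the coding region and the window is not a promoter. Of the 154 members, 134 had an annotated span under 1300 bases, so the remaining windows need not all be promoters either. Of the other 40 windows, 25 (62.5%) held TAATTA or TAATTG or TAATGA on either strand, the core of homeodomain sites. The 92 windows at a coding start held it in 48 (52.2%), so the core was not particular to the 40. Of all 32851 windows 18.0% held it, and of the 30936 without an ATG at the start 17.1%. The O/E core CCCNNGGG, which reads the same on both strands, stood in 3 of the 40 (7.50%). It stood in 11.8% of all windows and in 12.2% of those without an ATG at the start. Median GC content was 41.0% in the 40 and 52.4% in all, and its part in these shares was not tested. The windows printed here are those of *Olfr767*, the member of highest signal, and, among members with an annotated span over 1300 bases and no ATG at the start, those of the highest signal (*Olfr1358* and *Olfr1*) and of the lowest (*Olfr392* and *Olfr1355*), picked after the signals were known. Each is 250 bases, 5′ to 3′ in the direction of the gene, with matches to either core in capitals.
*Olfr767*, chr10:129079962-129080211, minus strand: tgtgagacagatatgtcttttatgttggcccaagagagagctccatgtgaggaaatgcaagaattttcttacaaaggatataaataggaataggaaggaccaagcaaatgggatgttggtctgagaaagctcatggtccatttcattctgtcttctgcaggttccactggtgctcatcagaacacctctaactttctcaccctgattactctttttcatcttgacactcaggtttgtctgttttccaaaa
*Olfr1358*, chr10:78517178-78517427, plus strand: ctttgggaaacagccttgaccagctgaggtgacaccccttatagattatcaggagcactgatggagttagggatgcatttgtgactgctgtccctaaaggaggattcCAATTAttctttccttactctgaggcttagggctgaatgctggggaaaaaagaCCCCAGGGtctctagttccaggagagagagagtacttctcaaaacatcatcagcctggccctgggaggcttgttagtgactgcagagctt
*Olfr1*, chr11:73399496-73399745, minus strand: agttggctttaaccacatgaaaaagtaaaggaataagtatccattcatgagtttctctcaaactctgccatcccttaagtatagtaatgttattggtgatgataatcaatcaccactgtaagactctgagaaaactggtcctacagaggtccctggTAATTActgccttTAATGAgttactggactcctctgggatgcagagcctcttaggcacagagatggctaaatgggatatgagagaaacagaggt
*Olfr392*, chr11:73816878-73817127, minus strand: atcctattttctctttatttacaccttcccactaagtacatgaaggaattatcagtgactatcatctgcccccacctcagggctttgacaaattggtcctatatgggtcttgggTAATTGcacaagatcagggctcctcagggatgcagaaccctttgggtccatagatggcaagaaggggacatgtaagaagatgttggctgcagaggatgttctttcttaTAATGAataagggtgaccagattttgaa
*Olfr1355*, chr10:78875299-78875548, plus strand: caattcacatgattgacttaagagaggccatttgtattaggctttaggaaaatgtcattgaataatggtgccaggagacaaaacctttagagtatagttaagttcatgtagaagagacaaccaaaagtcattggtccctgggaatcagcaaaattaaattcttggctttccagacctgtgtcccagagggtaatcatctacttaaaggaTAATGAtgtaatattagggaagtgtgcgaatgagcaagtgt

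*Olfr767* carries no match to either core in this window, which ends at its coding start. *Olfr1358* has 1 match to each core, *Olfr1* and *Olfr392* have 2 homeodomain cores each and *Olfr1355* has 1. Among these 5, homeodomain cores stood in the windows of *Olfr1358* and *Olfr1*, with mean log2 signals of 5.22 and 4.17. They also stood in those of *Olfr392* and *Olfr1355*, at 2.66 and 2.68.

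Array medians of all tested probe sets lay between 7.04 and 7.09 on the log2 scale, and pairs of arrays correlated between 0.984 and 0.99. The tissue label fitted its markers. Of 20 neuronal genes listed, 8 were measured, with a median log2 signal of 10.56, and *Syt1*, the calcium sensor of synaptic vesicles, reached 11.63. The 5 measured of 11 astrocyte genes had a median of 10.28. *Omp*, the defining marker of mature olfactory sensory neurons, had 0 probe sets among those analysed here. In the list of 30 genes used by those neurons, 5 were measured, among them *Adcy3*, the adenylyl cyclase of olfactory cilia, at 8.43, and *Ric8b*, a chaperone of G protein alpha subunits, at 8.85. Brain neurons use both genes too, so these signals do not separate the cell types.

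Signal of the family lay near the bottom of the genes measured here. A gene's value here is the mean log2 signal of its probe sets, and since probe sets differ in affinity, a position in the distribution describes signal and not RNA amount. The median olfactory receptor gene had a log2 signal of 3.39, with quartiles at 2.98 and 4.18, against a median of 6.75 and quartiles of 4.94 and 8.21 over the 4878 other genes. Only 4.31% of other genes lay below the family's median. Not 1 of the 154 members exceeded the median of the other genes, and 105 (68.2%) lay below 3.94, the 10% quantile of the other genes. The family made up 3.06% of the genes measured and 36 of the 100 dimmest.

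**Figure D1:**
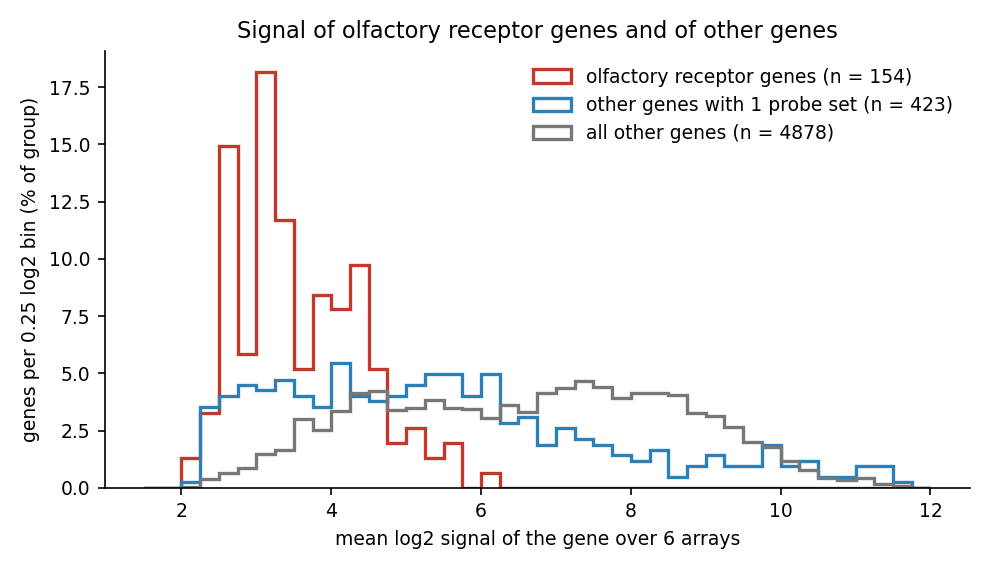
Distribution of mean log2 signal over 6 arrays (x axis) in 0.25-wide bins, as a percent of each group (y axis), for olfactory receptor genes, other genes with 1 probe set and all other genes. The family peaks between 2.5 and 3.5 and ends at 6.17, below the median of 6.75 of all other genes.

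Part of that gap moved with the number of probe sets per gene. Of the members, 134 were read by 1 probe set, 13 by 2, 6 by 3 and 1, *Olfr56*, by 6. Other genes with 1 probe set, 423 in number, had a median of 5.23, so against them the 134 members with 1 probe set, at 3.38, were 1.84 lower on the log2 scale, where the gap to all other genes was 3.35. The array's control features, 6616 in number, had a median of 4.18. Above it lay 38 members (24.7%), against 87.1% of the other genes.

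Other receptor families of the nose also had low median signals. Trace amine receptors, a small family of mostly olfactory amine receptors, had a median of 3.10 over 13 genes, from 2.53 to 4.06. Vomeronasal receptors, the pheromone receptors of the vomeronasal organ, had a median of 2.91 over 37 genes, but *Vmn2r86* among them stood at 7.07, above every olfactory receptor gene. The prolactin family, most of whose members are placental hormones, had a median of 3.29 over 21 genes. Keratins and keratin-associated proteins, genes of epithelium and hair, were brighter, with a median of 4.70 over 46 genes. All these lists were described by their values and not tested against one another.

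Members reached from 2.05 to 6.17. *Olfr806*, *Olfr804* and *Olfr776*, all on chromosome 10, had the lowest mean log2 signals, at 2.05 ± 0.06, 2.23 ± 0.04 and 2.34 ± 0.06 (SD, n = 6 arrays). At the other end 10 members (6.49%) exceeded 5, where 74.2% of other genes did. *Olfr767* on chromosome 10 had the highest signal, 0.59 above the next member, and it alone passed the upper fence of a box plot of the family, 5.97. It had log2 signals of 5.91, 5.81 and 6.40 on knockout arrays 1 to 3, against 6.41, 6.50 and 5.98 on control arrays 1 to 3. The spread ran within both groups, with control 1, control 2 and knockout 3 high and the other 3 arrays low. Its SD over the 6 arrays was 0.30, where the median member had 0.0617. Of the other genes 42.3% had a lower signal than *Olfr767*.

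The next 9 members were close to one another and steadier. *Olfr401* had log2 signals of 5.59, 5.45 and 5.51 on knockout arrays, against 5.72, 5.61 and 5.57 on control arrays. Knockout 1 lay among the controls there, so the groups overlapped. *Olfr314* had 5.61, 5.45 and 5.71 on knockout arrays, against 5.49, 5.55 and 5.46 on control arrays. Its lowest value of all was on a knockout array. *Olfr1395* had 5.52, 5.38 and 5.56 on knockout arrays, against 5.53, 5.45 and 5.56 on control arrays, with an equal highest value in both groups. Mean log2 signals of the remaining 6 were 5.37 for *Olfr462*, 5.34 for *Olfr1394*, 5.22 for *Olfr1358*, 5.18 for *Olfr1393*, 5.03 for *Olfr411* and 5.02 for *Olfr216*, with SDs over 6 arrays from 0.07 to 0.12. Each encodes an odorant receptor, and no ligand is named for them in the labels or the annotation.

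**Figure D2:**
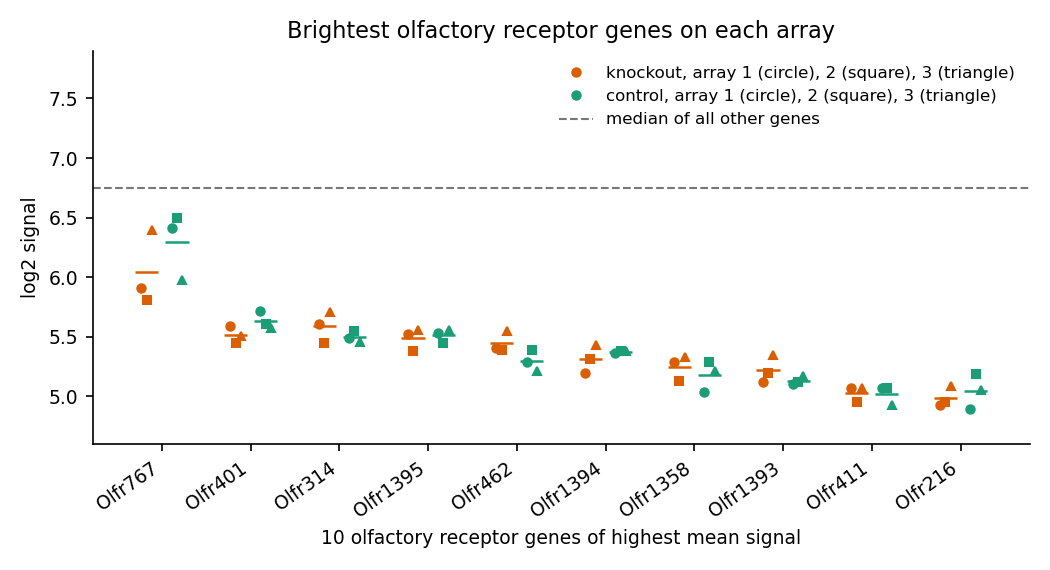
Log2 signal (y axis) of the 10 olfactory receptor genes of highest mean signal (x axis) on each array, knockout left of control for each gene, with a bar at each group's mean and the median of all other genes as a dashed line. *Olfr767* stands apart at 5.81 to 6.50 with a wide spread in both groups, and no gene's groups separate.

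Members lay in clusters along the chromosomes, and median signal differed between clusters. In RefSeq gene order the 154 fell into 14 runs, a run ending where over 10 genes of other families lay between neighbours. The longest, 49 genes from *Olfr9* to *Olfr827* on chromosome 10, had a median log2 signal of 3.01 and held *Olfr767*. On chromosome 11, the run of 15 genes from *Olfr1396* to *Olfr1382* had a median of 3.83. It held 3 of the 10 brightest, *Olfr1395*, *Olfr1394* and *Olfr1393*. These follow one another among the members, but *Btnl9* and *Mgat1* lie between *Olfr1394* and *Olfr1393*. The 12 genes from *Olfr30* to *Olfr313* had a median of 4.06 with 2 of the 10, and the pair *Olfr462* and *Olfr464* had 5.37 and 4.93. The longest run of chromosome 11, 25 genes from *Olfr1* to *Olfr412*, was nearly as dim as that of chromosome 10, with a median of 3.12, and it too held 2 of the 10, *Olfr401* and *Olfr411*. By chromosome, medians were 3.94 over 24 members on chromosome 1, 3.04 over 57 on chromosome 10, 3.81 over 62 on chromosome 11 and 3.86 over 11 on chromosome 13. Other genes on these chromosomes had medians of 6.58, 6.85, 6.77 and 6.32, so the low median of the chromosome 10 members was not shared by their chromosome. Receptors of 1 run are often close paralogs, and whether their probes read one another's RNA was not tested.

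**Figure D3:**
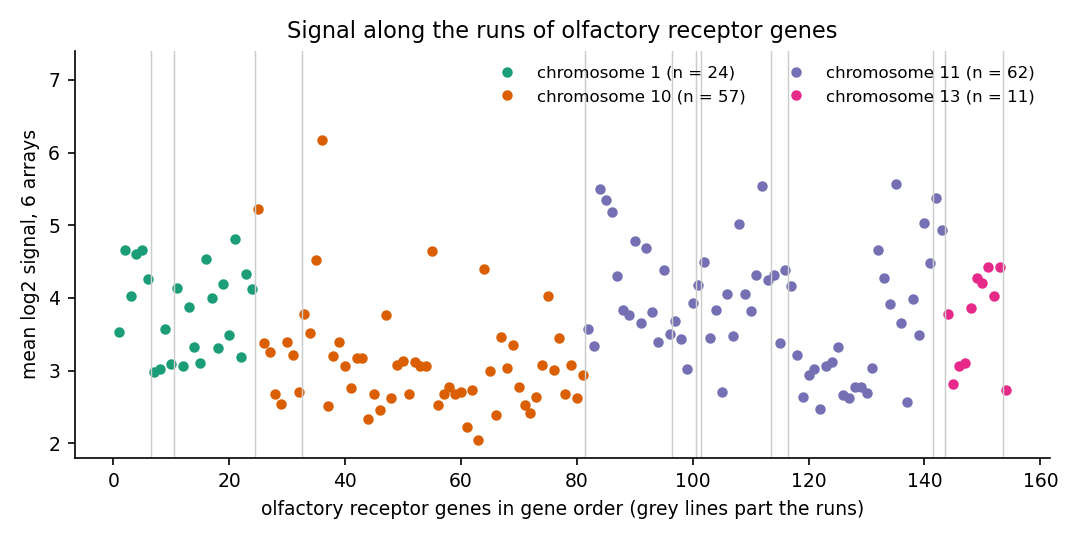
Mean log2 signal over 6 arrays (y axis) of the 154 olfactory receptor genes in gene order (x axis, rank), coloured by chromosome, with grey lines between runs. Most of the 57 genes of chromosome 10 lie near 3, with *Olfr767* at 6.17, while chromosome 11 holds 8 of the 10 brightest.

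Probe sets of the same receptor gene could read far apart. Among the 20 members with several probe sets, the gap between the lowest and the highest ran from 0.30 (*Olfr220*) to 3.04 (*Olfr1372-ps1*) on the log2 scale. *Olfr1372-ps1*, a transcribed pseudogene, had probe sets at 2.77, 3.96 and 5.81, the last the second highest of all 184. Its mean, 4.18, kept it from the 10 brightest genes. The pair of probe sets of *Olfr1384* stood at 2.28 and 4.50, and of *Olfr332* at 2.55 and 4.35. Of the 3 probe sets of *Olfr247*, 2 held the same values on every array. They give 1 reading, though both entered the mean of the gene and the 184 probe sets.

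Receptor probe sets also repeated the same value from array to array. To the 2 decimals deposited, 71 of 184 (38.6%) had an equal value on at least 3 of the 6 arrays, against 1105 of 53460 (2.07%) of other probe sets with 1 symbol. *Olfr1377* read 3.44 on all 6 arrays. The brighter probe set of *Olfr1384* read 4.51 on every array except knockout 2, where it read 4.46, and *Olfr410* read 3.48 on every array except knockout 3, where it read 3.53. The median SD over 6 arrays was 0.0659 for receptor probe sets and 0.177 for the others. At signals from 3 to 4 these SDs were 0.0717 over 68 receptor probe sets and 0.302 over 3858 others, so receptor probe sets varied less than others of like signal.

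Both features were also present in other genes read by 1 probe set. Among the 423 of them, 94 (22.2%) had at least 3 equal values and the median SD was 0.0829. At signals from 3 to 4, their SD was 0.0774 and 24 of 70 (34.3%) had equal values, against 0.305 and 2.64% for probe sets of other genes with several. The order of the shares changed with signal. From 3 to 4, 48.5% of receptor probe sets had equal values, against the 34.3% just given, and from 4 to 5 44.9% did, against 21.6%. Below 3 the receptor share was 26.8%, against 40.4%, and from 5 to 6 it was 1 of 10, against 23.4%. Receptor probe sets of genes with several had a median SD of 0.0997, against 0.0603 for those with 1. Numbers of probes per probe set and the method that summarised probes into these log2 values are not settled by the sources used here, and their part in this was not tested.

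**Figure D4:**
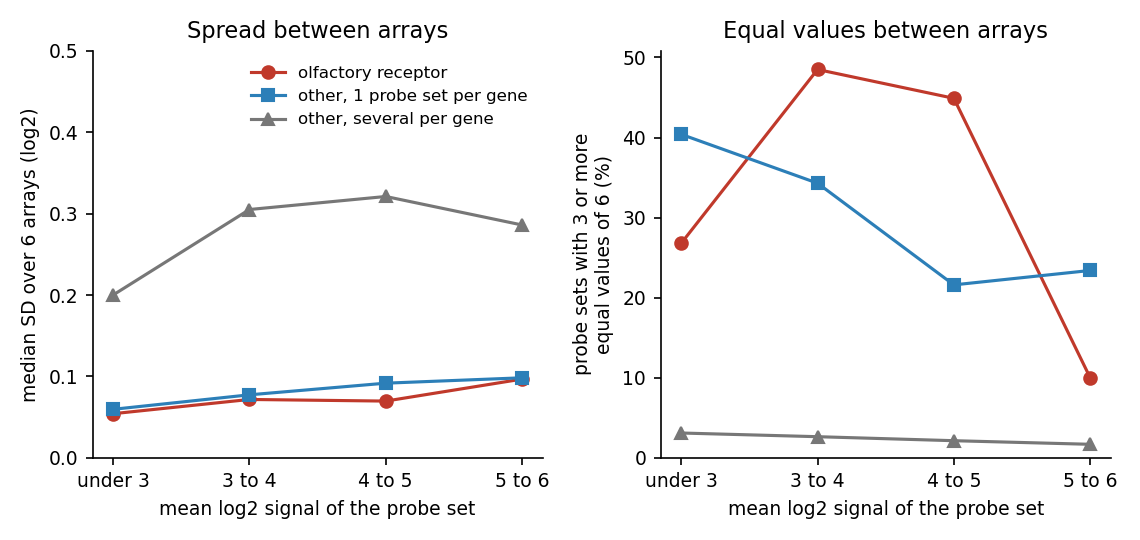
Left, median SD over 6 arrays (y axis, log2), and right, percent of probe sets with at least 3 equal values of 6 (y axis), by mean log2 signal (x axis), for olfactory receptor probe sets, other probe sets of genes with 1 and other probe sets of genes with several. Receptor probe sets keep a median SD below 0.1 in each of the 4 signal bins, close to other genes with 1 probe set, while genes with several lie at 0.2 or above. Equal values are more frequent in receptor probe sets than in other genes with 1 probe set at signals from 3 to 5 and less frequent below 3 and from 5 to 6.

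The comparison of knockout with control asked whether a family known to be little expressed in brain shifts with the loss of *Abcc1* in amyloid mice. No member passed the test. With limma, fitted on all tested probe sets, 0 of 184 receptor probe sets had an adjusted p below 0.05 (0.00509% of all probe sets did), and the smallest was 0.557. At an unadjusted p below 0.05 there were 0 higher, against 4.75% of all probe sets, and 3 lower, against 2.94%. Tested per gene, 0 of 154 passed (0.00% of all genes did), with a smallest adjusted p of 0.216, and at an unadjusted p below 0.05 there were 0 higher and 4 lower, against 7.95% and 6.10% of all genes. A variance trend with robust moderation also called 0, with 1 higher and 4 lower at an unadjusted p below 0.05, against 8.66% and 6.28%. Fitted on genes with 1 probe set only, 0 of 134 passed, with 2 higher and 2 lower at an unadjusted p below 0.05, against 2.51% and 5.21%. These small counts moved with the setting. Over 12 alternatives that kept all 154 genes they ran from 0 to 4 higher and from 3 to 7 lower. Array weights gave 4 higher and 6 lower, against 9.10% and 7.75% of all genes. Without control 2 there were 2 higher and 7 lower, against 8.41% and 7.25%, and without knockout 2 there were 3 of each, against 6.0% and 5.80%.

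The family's level was nearly equal in both groups. Median log2 signal of the 154 genes was 3.43, 3.36 and 3.38 on knockout arrays 1 to 3, against 3.46, 3.40 and 3.38 on control arrays 1 to 3. The groups overlapped, and their means were 3.39 ± 0.0348 and 3.41 ± 0.043 (SD, n = 3 each). The median log2 difference of the members, knockout minus control, was -0.007, beside -0.004 over all other genes. Single differences ran from -0.26 to 0.15, with quartiles at -0.05 and 0.02. A size of 0.2 or more was reached by 3 members (1.95%), against 345 of the other genes (7.07%). The control features had medians of 4.27, 4.29 and 4.20 on knockout arrays and 4.09, 4.16 and 4.11 on control arrays, without overlap. These cover all control features, with mean log2 signals from 1.84 to 12.18, and features matched to the receptor genes by signal were not compared. In bulk RNA, fewer cells with a transcript and less transcript per cell cannot be told apart.

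**Figure D5:**
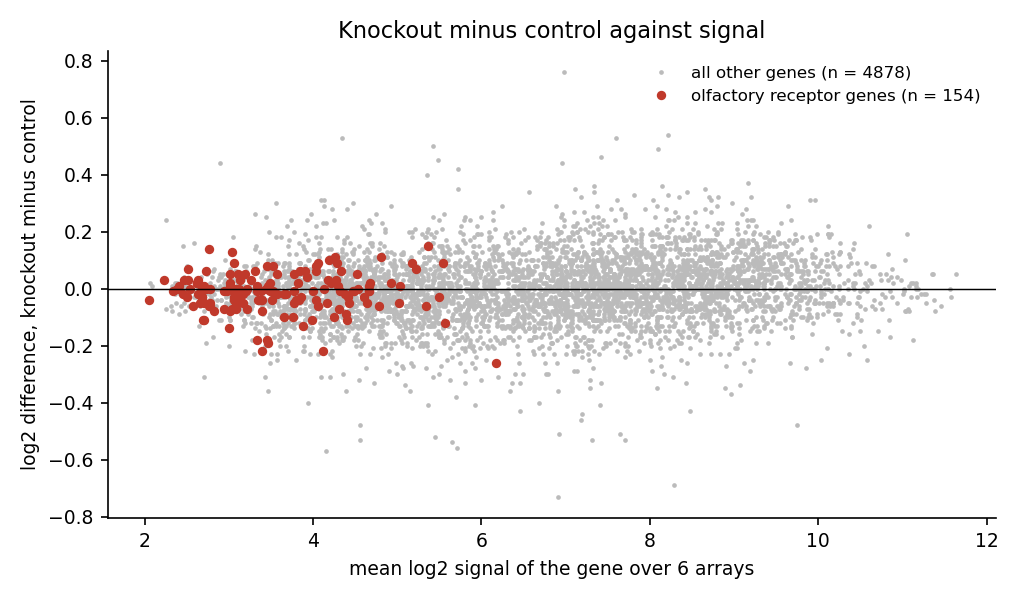
Log2 difference, knockout minus control (y axis), against mean log2 signal over 6 arrays (x axis), for the 154 olfactory receptor genes and 4878 other genes, 1 point per gene. Receptor genes lie between -0.26 and 0.15, at the left of the plot and close to 0.

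By direction, 89 members had lower values in the knockout, 61 higher and 4 equal to within 1e-09. A further 10 had differences that round to 0 at 2 decimals. That is 57.8% lower, beside 51.1% of other genes and 58.6% of other genes with 1 probe set. The split depended on scaling, with 111 lower (72.1%) after median centring and 81 lower (52.6%) after quantile normalization. All 3 knockout values lay above all 3 control values in 2 members, against 11.3% of all genes, and below them in 5, against 8.80%.

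The smallest unadjusted p among genes belonged to *Olfr220* on chromosome 1, at 0.00172. It had log2 signals of 4.06, 3.98 and 4.0 on knockout arrays, against 4.20, 4.26 and 4.24 on control arrays. The groups did not overlap, and the log2 difference was -0.22 (SE 0.05, limma adjusted p = 0.216). It rested on 1 of its 2 probe sets. That probe set read 4.15, 4.17 and 3.91 on knockout arrays, against 4.40, 4.51 and 4.48 on control arrays, while the other had a difference of -0.05.

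*Olfr56* had log2 signals of 3.28, 3.27 and 3.20 on knockout arrays, against 3.44, 3.37 and 3.49 on control arrays, again without overlap. Its log2 difference was -0.18 (SE 0.05, limma adjusted p = 0.23). Of its 6 probe sets 5 had a negative difference, from -0.33 to -0.16, and the other had 0.12. A further probe set carries the symbols of both *Olfr56* and *Ifi47*, an interferon-inducible GTPase, and had a log2 difference of 0.26. *Ifi47* itself was at 4.54 ± 0.19 in the knockout and 4.42 ± 0.06 in the control (SD, n = 3 each). Its log2 difference was 0.13 (SE 0.09, limma adjusted p = 0.565). Neither gene passed the threshold, so whether the receptor and its annotated partner differ in direction is not settled.

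*Olfr808* had log2 signals of 2.95, 2.87 and 2.96 on knockout arrays, against 3.06, 3.06 and 3.08 on control arrays. The groups did not overlap, and the difference was -0.14 (SE 0.05, limma adjusted p = 0.275), and 1.97% of other genes were dimmer. *Olfr1353* had 3.42, 3.18 and 3.26 on knockout arrays, against 3.61, 3.35 and 3.55 on control arrays, with knockout 1 above control 2 and a difference of -0.22 (SE 0.09, limma adjusted p = 0.339). The other 4 named by the smallest p on this side, *Olfr313*, *Olfr810*, *Olfr401* and *Olfr23*, had log2 differences from -0.19 to -0.10 and adjusted p from 0.37 to 0.444. For *Olfr810* the difference was -0.40 at 1 probe set and 0.03 at the other, the brighter one.

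On the higher side the sizes were smaller. *Olfr772* had log2 signals of 2.87, 2.74 and 2.89 on knockout arrays, against 2.69, 2.76 and 2.63 on control arrays, a difference of 0.14 (SE 0.06, limma adjusted p = 0.357). Knockout 2 lay below control 2, so the groups overlapped. *Olfr462*, of the 10 brightest, had 5.41, 5.39 and 5.55 on knockout arrays, against 5.29, 5.39 and 5.21 on control arrays, a difference of 0.15 (SE 0.07, limma adjusted p = 0.363). *Olfr417* shows the repeated values, with 4.86 on all 3 knockout arrays and 4.69, 4.70 and 4.86 on control arrays. *Olfr811*, *Olfr1365*, *Olfr12*, *Olfr420* and *Olfr798* had differences from 0.07 to 0.13 and adjusted p from 0.437 to 0.536.

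Probe sets with several symbols were left out of the family. There were 37 that name an olfactory receptor. The 24 that name receptors only had log2 signals from 2.40 to 4.73, with a median of 3.35, close to the 184 counted. Of the 13 shared with another gene, 3 name *Stard3*, a cholesterol-binding protein of late endosomes, beside *Olfr869*, and these reached 6.58, 8.60 and 8.77. *Stard3* by its own 12 probe sets had a mean log2 signal of 7.62. The 9 shared by *Spata22*, a gene of meiosis, and *Olfr20* stood between 1.94 and 4.99. The limma adjusted p was above 0.05 for each of the 37.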

How the data were processed

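Total RNA of 6 mouse brain samples was labelled with biotin for Affymetrix whole-transcript arrays, per the labels. The authors deposited log2 signals with 2 decimals per probe set, and the submitters' processing notes name MAS5 without saying for which step, so whether it made these values is not known. The log2 scale was read from the values, 1.69 to 14.41. The scaling between arrays, the genome build and the probes per probe set are not given in the sources used here. Values were used without further scaling, since array medians differed by less than 0.1.

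Of 65535 rows, 6616 with IDs below the first annotated one were taken as control features, from the order of IDs, and not tested. Of 58919 tested probe sets, 53644 had 1 symbol, 877 several and 4398 none in the platform annotation, and only the first kind named genes. RefSeq (GRCm38.p6) held 146 of the 154 receptor symbols as current and 8 as synonyms; it gave chromosomes, gene order and upstream windows. Knockout minus control was fitted over all probe sets, and over means of all probe sets of each of 5032 genes, with limma 3.58.1 in R 4.3.3 (lmFit, eBayes, two-sided, Benjamini-Hochberg, threshold 0.05). The fit was tested on simulated data.

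Named were the 10 members of highest and 3 of lowest signal, the 8 of smallest p in each direction, those past the threshold or holding a probe set with a difference of at least 1 in size and an unadjusted p below 0.05 (none), and up to 2 genes of each list. Lists covered brain cell types, red cells, olfactory neurons and bulb, other receptor families, keratins and prolactins. Members and lists were chosen with earlier results of these data known. Alternatives covered normalization, dim features, variance model, array weights, replicate number, single arrays, the value per gene and the threshold. With 3 arrays per group, their number limits the precision. Fits on genes with 1 probe set were added after seeing the data.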

Additional observations from a re-analysis of the deposited data

How the results depend on the processing

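No alternative made a receptor pass. The count of called members was 0 in all 14 alternatives over probe sets, with smallest adjusted p from 0.508 to 0.771, and 0 in all 15 over genes, from 0.135 to 0.502, each with limma. It was 0 without any single array. Dropping the dimmest features (1 in 3) left 1 receptor probe set and 4 receptor genes, so it says little about the family. The median difference of -0.007 was -0.072 over those 4 genes, the members of highest signal, so number and signal changed together. It was -0.027 after median centring, beside -0.024 over all genes, and from -0.013 to 0 without 1 array. The gap in median signal to other genes, -3.35, was -4.78 by brightest probe sets, -3.82 over single probe sets, -2.03 against genes with at most 3 probe sets, -1.84 among genes with 1 probe set, a choice made after seeing the data, and from -3.37 to -3.32 without 1 array. Among the 16 named differences, that of *Olfr810* reversed, from -0.19 to 0.03 by its brightest probe set; the cause was not tested. Leaving out 1 array moved 9 of the 16 by over 1.5 times, none past the threshold: *Olfr811* to 0.06 and *Olfr12* to 0.06 without knockout 3, *Olfr810* to -0.12 without knockout 1, *Olfr401* to -0.07, *Olfr1365* to 0.06 and *Olfr798* to 0.05 without control 1, *Olfr420* to 0.05 without control 2, and *Olfr417* to 0.16 and *Olfr23* to -0.08 without control 3. With the replicate number as a block, 0 probe sets and 0 genes passed, with smallest adjusted p of 0.72 and 0.312. Deviations from the group means correlated at 0.0367, -0.07 and -0.1 between samples of numbers 1, 2 and 3. The highest correlation was 0.137, between knockout 2 and control 3. With 3 arrays per group, values this small cannot decide whether the numbers pair the samples. Most members lay below the median signal of the control features, and how far the arrays can show a difference at such signals was not tested.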

Other observations

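Some genes of the other lists stood apart by signal or spread. *Vmn2r86*, a vomeronasal receptor gene, had 7.0 ± 0.09 in the knockout and 7.14 ± 0.19 in the control (SD, n = 3 each) on the log2 scale, and *Vmn2r88* 5.66 ± 0.19 and 5.95 ± 0.21, each by 1 probe set. *Prl*, the pituitary hormone prolactin, had the widest spread in its list, at 5.89 ± 1.26 in the knockout and 5.54 ± 0.96 in the control. *Krt222* (8.07), *Krtap17-1* (7.45) and *Krtap3-1* (6.71) had the highest mean log2 signals of the keratin list. Of the genes used by olfactory neurons, *Bptf*, a chromatin remodelling subunit, had the smallest p, at a difference of 0.28 on the log2 scale (SE 0.06, adjusted p = 0.216 with limma), and *Ebf1*, a transcription factor, stood at 0.21 (SE 0.06, adjusted p = 0.229 with limma). *Lbr*, a nuclear envelope protein, was at 0.06, *Ric8b* at 0.12 and *Adcy3* at -0.01. *Tbx21*, expressed in mitral cells of the olfactory bulb and the 1 measured gene of 17 in its list, was at 5.38 ± 0.24 in the knockout and 5.51 ± 0.37 in the control. The red cell gene *Slc4a1* differed by -0.36 on the log2 scale. The 5 measured astrocyte genes had a median difference of -0.15, with 4 of 5 lower. Their median signal per array was 10.14 to 10.24 in the knockout and 10.31 to 10.42 in the control, without overlap. That median lies near *Gja1*, a gap junction protein and the middle gene by mean signal, at 10.21 ± 0.06 and 10.36 ± 0.05. Of all genes, 8.80% had all 3 knockout values below all 3 control values. Among the astrocyte genes *S100b*, a calcium-binding protein, differed by -0.21 and *Gja1* by -0.15 (adjusted p = 0.252 and 0.29 with limma). *Aldoc* and *Glul*, both brighter, differed by -0.02 and 0.02, and *Gfap* by -0.48 (SE 0.25). The 3 measured microglial genes had a median difference of -0.17, but their median signal per array was 6.68 to 7.54 in the knockout, spanning the control range of 7.33 to 7.44. The part of these markers in the receptor differences was not tested. No gene of these lists passed the limma threshold.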
